A study of Mus musculus with 8 samples.

Results

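The Clca genes encode the chloride channel accessory proteins, named for calcium-activated chloride currents. Clca1, Clca2, Clca3a1, Clca3a2 and Clca3b were described here in RNA from F4/80-selected cells of the mouse inguinal fat pad. They are 5 of the 56748 gene rows of the deposited count table. They were chosen by family name because 1 of them, Clca3a2, had the smallest p of the 16780 genes tested in this same comparison, at rank 1. Their levels and fold changes between the groups are therefore given as a description, with no p-value.

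In the Aldara group, wild-type (WT) female mice had 62.5 mg of Aldara cream with 5% imiquimod, a Toll-like receptor 7 agonist, spread on shaved back skin near the tail on 3 days in a row. In the Vehicle group, WT females had the same volume of a control made of Boots Aqueous Cream and Vaseline Lanette Cream. Tissue was taken 24 h after the last cream. Each group holds 4 libraries, each made from the bead-selected cells of 6 pooled fat pads, about 30000 cells, at over 90% F4/80+ CD64+ by flow cytometry. The labels do not say whether libraries came from separate animals, so the spread between libraries is that between pools.

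CLCA proteins are secreted or membrane-anchored proteins that cut themselves with a metalloprotease domain and carry a von Willebrand factor A domain. They do not form channels themselves. Human CLCA1 binds the calcium-activated chloride channel TMEM16A, the product of Ano1, and keeps it at the cell surface. In mice, Clca3a1 and Clca3a2 are known from the mammary gland, which lies inside the inguinal fat pad, Clca1 from mucus-secreting cells, and Clca2 from stratified and glandular epithelia.

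The 5 genes lie in a single cluster with Clca4a, Clca4b and the pseudogene Clca4c-ps, 8 Clca genes in all, each on the minus strand of chromosome 3 (chr3:144729677-145099443, GRCm38, GENCODE M21 annotation), over 370 kb. Clca3a1 (ENSMUSG00000056025) lies at chr3:144729677-144760977 and Clca3a2 (ENSMUSG00000028262) at chr3:144796559-144819494. Next come Clca3b (ENSMUSG00000037033) at chr3:144822623-144849357, Clca1 (ENSMUSG00000028255) at chr3:145003817-145032776 and Clca2 (ENSMUSG00000036960) at chr3:145070263-145099443. Clca3a1 and Clca3a2 are near copies, with coding regions of 2706 bases each that differ at 79 positions and are 97.1% identical. Clca3b is 87% identical to Clca3a1 and 86.9% to Clca3a2 over the aligned coding bases. Clca1 and Clca2 are 59.8% identical to each other and 64.3% to 66.2% identical to the 3 Clca3 genes.

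The longest coding run that Clca3a1 and Clca3a2 share without a difference is 242 bases, at coding positions 902 to 1143. It is shown because reads inside it fit both genes equally, and no base is in capitals because none differs. The transcript sequences are those of GENCODE M21.
Clca3a1 and Clca3a2: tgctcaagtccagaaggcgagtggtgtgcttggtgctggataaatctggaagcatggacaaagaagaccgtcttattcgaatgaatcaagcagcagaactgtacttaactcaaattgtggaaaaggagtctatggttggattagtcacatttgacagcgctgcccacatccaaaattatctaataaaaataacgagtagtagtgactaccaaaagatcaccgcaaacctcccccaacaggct
The 120 coding bases in which the pair differs most, positions 499 to 618, are shown as the stretch where reads tell the genes apart most readily. Capitals mark the 15 differences.
Clca3a2: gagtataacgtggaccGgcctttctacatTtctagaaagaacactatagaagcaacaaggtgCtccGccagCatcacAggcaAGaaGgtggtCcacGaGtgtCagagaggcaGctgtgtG
Clca3a1: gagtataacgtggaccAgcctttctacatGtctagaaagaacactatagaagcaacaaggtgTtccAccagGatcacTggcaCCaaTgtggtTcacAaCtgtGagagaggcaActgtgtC

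How far reads could be shared depends on their length, which is not given in the sources used here. Of the 50-base windows of the main Clca3a2 transcript, 24% occur exactly in a Clca3a1 transcript. The share is 8.35% for windows of 100 bases and 2.65% for windows of 150 bases. Of the Clca3b windows, 4.62% of 50 bases and 0.552% of 100 bases occur in Clca3a2, and none of 150 bases do. Clca1 and Clca2 share 0 windows of any of these lengths with another gene.

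**Figure D1:**
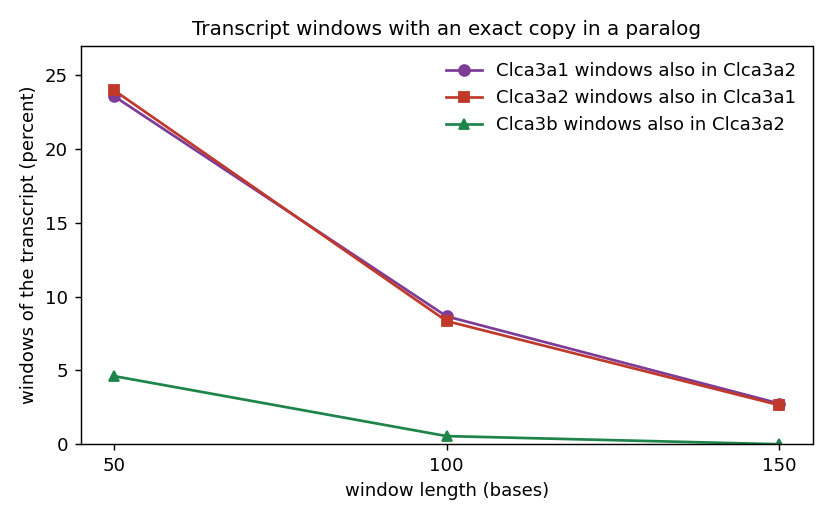
Share of transcript windows (vertical axis, percent) that have an exact copy in the named paralog, by window length (horizontal axis, bases). Both members of the Clca3a1 and Clca3a2 pair fall from about 24% at 50 bases to under 3% at 150 bases, and Clca3b stays under 5%.

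Total counts per library were 19537607 to 24340674 in Aldara and 21874780 to 34471508 in Vehicle. Of the 5 members, 3 passed the filter on low counts (Clca1, Clca3a1 and Clca3a2), and Clca2 and Clca3b did not. At an adjusted p under 0.05 in edgeR's quasi-likelihood test, 2 of the 3 tested members rose and 0 fell, and the groups of those 2 did not overlap. Over all 16780 tested genes, 10.8% passed in either direction, 6.98% rose (1171 genes) and 3.86% fell (647 genes), and 17.8% had groups that did not overlap. Since the family was chosen from this comparison, its count is a description, and nothing is read from it. With upper-quartile factors in place of TMM, 979 genes rose and 990 fell. The median log2 fold change of all tested genes was 0.01.

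Clca3a2, a CLCA gene known in mice from the mammary gland, held most of the counts of the 5 genes in every library. Its level was 1240, 1050, 1060 and 790 CPM (read counts relative to the TMM-scaled library size) in Aldara replicates 1 to 4, against 273, 238, 199 and 247 CPM in Vehicle replicates 1 to 4. The lowest Aldara library stood well above the highest Vehicle library. The raw counts were 14848 to 29121 in Aldara and 5201 to 7688 in Vehicle, so counting error is small beside the spread between libraries. Clca3a2 averaged 1040 ± 186 CPM in Aldara and 239 ± 30.7 CPM in Vehicle (SD, n = 4 each), a log2 fold change of 2.11 (SE 0.15) or 4.33-fold. In these bulk libraries, more cells that express the gene and more RNA per cell cannot be told apart.

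Clca3a1, whose product binds the leukocyte integrin LFA-1 on lymphatic endothelium in mice, had 60.3, 56.2, 48.2 and 37.0 CPM in Aldara replicates 1 to 4. In Vehicle replicates 1 to 4 it had 31.8, 28.6, 26.0 and 23.9 CPM. The groups did not overlap, though the lowest Aldara library lay close to the highest Vehicle library. It averaged 50.4 ± 10.3 CPM in Aldara and 27.6 ± 3.45 CPM in Vehicle, a log2 fold change of 0.87 (SE 0.15) or 1.83-fold.

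Clca1, a product of mucus-secreting cells that interleukin-13 raises in airways, did not pass the threshold. Its level was 8.24, 6.26, 11.5 and 13.0 CPM in Aldara replicates 1 to 4, against 15.3, 11.5, 19.9 and 54.4 CPM in Vehicle replicates 1 to 4. The groups overlapped, and Vehicle replicate 4 stood apart from the other Vehicle libraries. The means were 9.74 ± 3.05 CPM in Aldara and 25.3 ± 19.7 CPM in Vehicle, a log2 fold change of −1.39 (SE 0.48). Without Vehicle replicate 4 the log2 fold change was −0.69. With the replicate number as a block in the fit it was −1.17 and passed the threshold.

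Clca2, an epithelial gene that p53 induces in human cells, was near the detection limit. It had 2, 6, 1 and 1 counts in Aldara replicates 1 to 4, against 4, 4, 20 and 5 counts in Vehicle replicates 1 to 4. Vehicle replicate 3 held 20 of the 33 Vehicle counts. The ratio of Aldara to Vehicle, scaled to library size, was 0.363 with a 95% counting interval of 0.16 to 0.754, which leaves out the spread between libraries.

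Clca3b had 11, 7, 13 and 10 counts in Aldara replicates 1 to 4, against 4, 0, 0 and 3 counts in Vehicle replicates 1 to 4. The groups did not overlap. The scaled ratio was 7.02, with a 95% counting interval of 3.12 to 18.5. Clca3b counts per 10000 Clca3a2 counts were 4.27 (95% interval 3.06 to 5.79) in Aldara and 2.72 (1.09 to 5.6) in Vehicle, and these intervals overlap. Whether reads of Clca3a2 entered the Clca3b row was not tested.

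**Figure D2:**
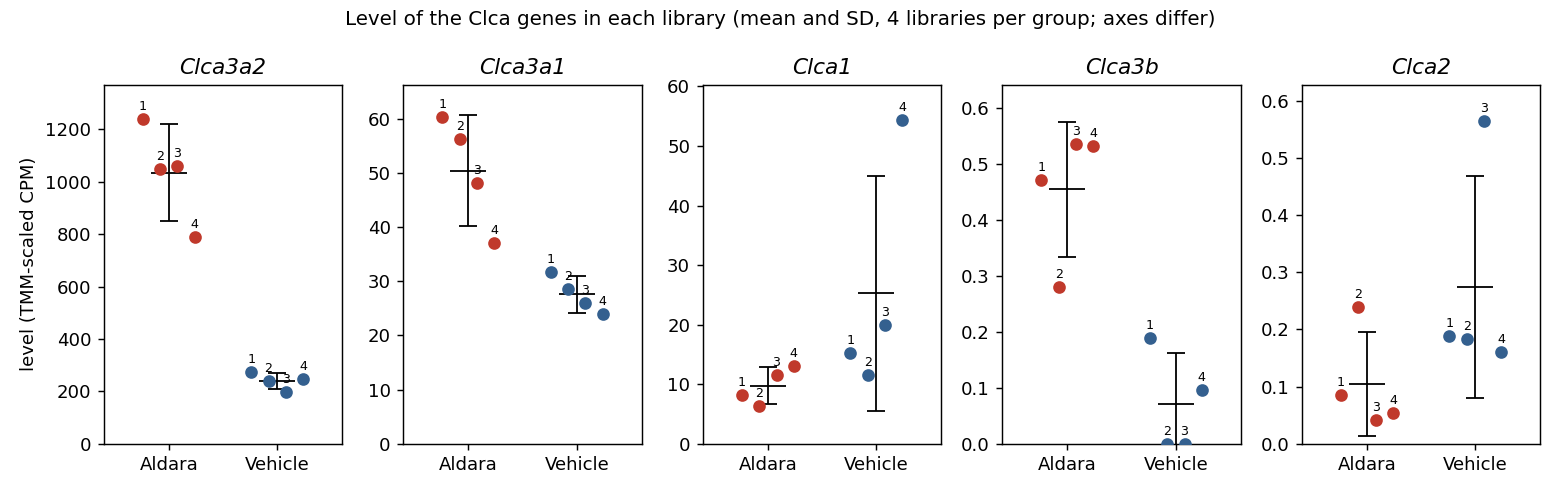
Level of each Clca gene (vertical axes, TMM-scaled CPM, scales differ) in the Aldara and Vehicle libraries; points are libraries numbered by replicate, bars the mean and SD of 4. Clca3a2, Clca3a1 and Clca3b have no overlap between groups, whereas Clca1 and Clca2 overlap and each has 1 high Vehicle library.

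The other Clca genes had few or no counts. Clca4b had 0 counts in all 8 libraries, which allows up to 0.16 CPM in the shallowest one. Clca4a had 2 counts over the Aldara libraries and 1 over the Vehicle libraries, and Clca4c-ps had 2 over the Aldara libraries and 8 over the Vehicle libraries.

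Levels can be ordered between genes only per length of exon. In Aldara the order was Clca3a2 at 261 ± 46.9 CPM per kb, Clca3a1 at 12.9 ± 2.64, Clca1 at 2.58 ± 0.808, Clca3b at 0.135 ± 0.0359 and Clca2 at 0.0225 ± 0.0197. Each neighbour in that order was separated, with no overlap between their libraries. In Vehicle, Clca3a2 stood at 60.2 ± 7.72 CPM per kb. Clca3a1 at 7.07 ± 0.885 and Clca1 at 6.69 ± 5.21 did not differ beyond their spread there, nor did Clca2 at 0.059 ± 0.0418 and Clca3b at 0.0211 ± 0.0268.

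Ratios taken inside a library do not depend on how libraries are scaled. Clca3a2 had 20.6, 18.7, 22.0 and 21.4 counts per Clca3a1 count in Aldara replicates 1 to 4, against 8.58, 8.30, 7.67 and 10.3 in Vehicle replicates 1 to 4. The groups were far apart, with means of 20.7 ± 1.44 in Aldara and 8.72 ± 1.15 in Vehicle. The 5 genes held 0.0809% to 0.134% of all counts of a library in Aldara and 0.0252% to 0.0325% in Vehicle. Clca3a2 made up 94.0% to 94.7% of those Clca counts in Aldara and 75.9% to 85.5% in Vehicle, and Clca1 made up 0.563% to 1.54% in Aldara and 4.14% to 16.7% in Vehicle.

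**Figure D3:**
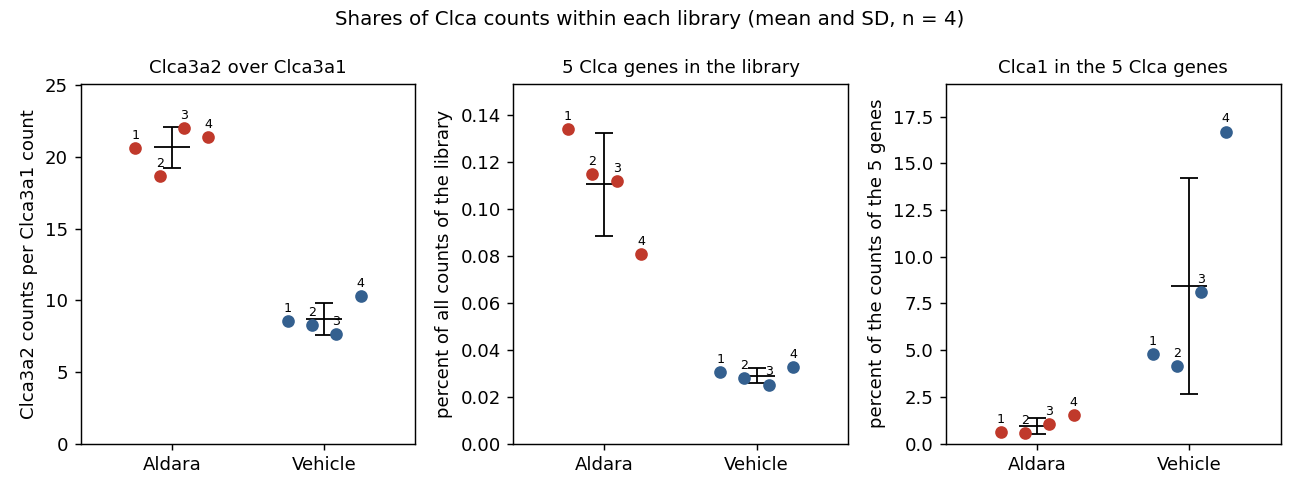
Clca3a2 counts per Clca3a1 count, the share of the 5 Clca genes in all counts, and the share of Clca1 in the Clca counts (vertical axes) for Aldara and Vehicle; points are libraries numbered by replicate, bars the mean and SD of 4. The pair ratio lies between 18.7 and 22.0 in Aldara and between 7.67 and 10.3 in Vehicle.

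Since the pair shares sequence, its rows were also summed, which removes any effect of how the counted reads were divided between them. Reads left uncounted because they fit both genes, if any, are not restored by the sum. Clca3a2 held most counts of the pair in every library, so the sum mainly follows Clca3a2. Clca3a1 and Clca3a2 together gave a log2 fold change of 2.03 (SE 0.15), and all 8 Clca rows together 1.91 (SE 0.15). The Clca3a1 difference between the groups, 22.9 CPM, was 2.87% of the Clca3a2 difference of 796 CPM. That share is below the 8.35% of 100-base windows and close to the 2.65% of 150-base windows of Clca3a2 that occur in Clca3a1. Whether reads of Clca3a2 entered the Clca3a1 row was not tested.

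The library kit does not mark strand, so reads from an antisense gene and from the gene it overlaps cannot be told apart by strand. How reads in such an overlap were counted is not given. Gm43240, antisense within Clca3a2, had 0.603 ± 0.248 CPM in Aldara and 0.484 ± 0.246 CPM in Vehicle (log2 fold change 0.27, SE 0.46, adjusted p = 0.772). Gm34866, antisense within Clca3a1, had 0 to 3 counts in any library. Gm17743, a processed pseudogene between Clca3a1 and Clca3a2 singled out after its values were seen, rose to 3.86 ± 1.45 CPM in Aldara, against 1.53 ± 0.22 CPM in Vehicle (log2 fold change 1.32, SE 0.28, adjusted p = 0.0147). All 3 rows hold few counts beside that of Clca3a2.

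Outside the cluster, the nearest coding genes had smaller fold changes than Clca3a2 and Clca3a1. The family was chosen from this comparison for its Clca3a2 value, so nothing is read from this difference. Sh3glb1, which encodes a membrane-curving protein of autophagy and lies beyond Clca3a1, had 183 ± 21.8 CPM in Aldara and 142 ± 6.22 CPM in Vehicle (log2 fold change 0.37, SE 0.10, adjusted p = 0.0366). It passed the threshold only with all 8 libraries or without Aldara replicate 1, and without any 1 of the other 7 its adjusted p was up to 0.123. Odf2l, beyond Clca2, had 29.7 ± 3.97 CPM in Aldara and 28.3 ± 2.86 CPM in Vehicle (log2 fold change 0.06, SE 0.12, adjusted p = 0.786).

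The cells were selected as macrophages, so the Clca levels were set beside marker genes of the cell types a fat pad can hold. Epithelial transcripts were abundant in both groups. Epcam, an epithelial adhesion molecule, had 1390 ± 100 CPM in Aldara and 1480 ± 45.2 CPM in Vehicle (adjusted p = 0.636), and Krt8, a keratin of simple epithelia, 4170 ± 586 CPM in Aldara and 4140 ± 935 CPM in Vehicle (adjusted p = 0.978). Adgre1, which encodes F4/80, had 429, 707, 1410 and 1320 CPM in Aldara replicates 1 to 4, against 53.4, 83.3, 96.8 and 96.5 CPM in Vehicle replicates 1 to 4 (log2 fold change 3.55, SE 0.40, adjusted p = 0.0021). The CD45 gene Ptprc, expressed by leukocytes, had 151 ± 62.8 CPM in Aldara and 41.6 ± 6.5 CPM in Vehicle (adjusted p = 0.0064). Both leukocyte genes were lowest in Aldara replicate 1 among the Aldara libraries.

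Of the 10 epithelial markers, 0 passed the threshold, beside 10.8% of all tested genes. The markers had a median log2 fold change of −0.09 and a summed level of 12700 to 16400 CPM in Aldara and 13100 to 18700 CPM in Vehicle. Without the threshold, 2 had an unadjusted p under 0.05, DESeq2 called 2 lower (Krt19 and Krt7), and the fit with the replicate block called these 2 lower and Cldn4 higher. The Clca3a2 level over the geometric mean of these 10 markers was 0.281, 0.221, 0.389 and −0.298 (log2) in Aldara replicates 1 to 4, against −2.07, −1.99, −2.10 and −2.09 in Vehicle replicates 1 to 4. The 4 Vehicle libraries were almost level with each other on this scale (SD 0.0517), and the difference of the means, 2.21, was as large as in CPM. Clca3a1 over the same markers was −4.20 ± 0.331 in Aldara and −5.15 ± 0.197 in Vehicle, a difference of 0.95. Clca1 was at −6.54 ± 0.493 in Aldara and −5.53 ± 0.937 in Vehicle.

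Macrophage markers moved with the groups. Of 12, 7 rose and 0 fell (58.3%, beside 10.8% of all tested genes), with a median log2 fold change of 1.48. The count was 11 with the block, DESeq2 or no robust moderation. It was 6 with upper-quartile factors or total counts, and 3 with no filter on low counts. Without 1 library the count was 11 (Aldara replicate 1), 7 (Vehicle replicate 3) or 6 (Aldara replicate 2). It was 4 without Aldara replicate 3 or Vehicle replicate 1, 2 or 4, and 3 without Aldara replicate 4. Adgre1, Itgam and Ptprc were called in each of these fits. The summed level of the 12 markers was 3500 to 9610 CPM in Aldara and 1480 to 3050 CPM in Vehicle. Their geometric mean was 167, 245, 444 and 425 CPM in Aldara replicates 1 to 4, where Clca3a2 was highest in replicate 1, the library lowest in macrophage markers. Over this geometric mean, Clca3a2 was 1.79 ± 0.897 (log2) in Aldara and 1.20 ± 0.543 in Vehicle, and Clca3a1 −2.56 ± 0.951 in Aldara and −1.89 ± 0.495 in Vehicle, so on this scale the groups overlapped for both genes. Between libraries of the same number, Clca3a1 was lower in Aldara in 4 of 4 pairs and Clca3a2 higher in 3 of 4. Clca1 over the same markers was −4.91 ± 0.447 in Aldara and −2.27 ± 0.964 in Vehicle, with no overlap. Which cells carried the Clca transcripts was not tested.

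**Figure D4:**
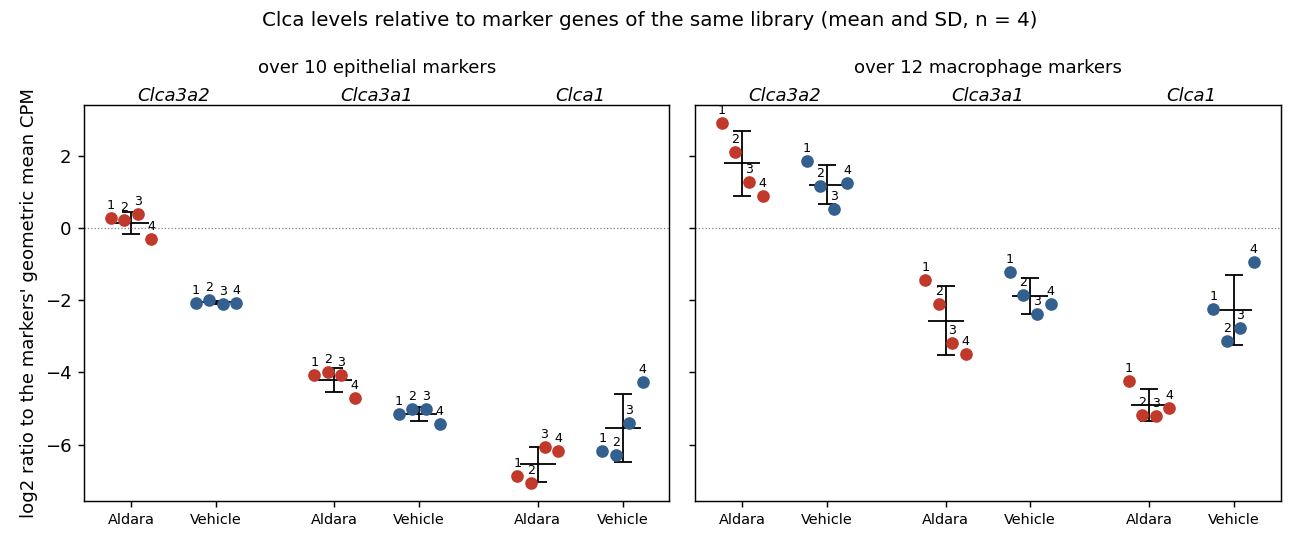
Log2 ratio of Clca3a2, Clca3a1 and Clca1 to the geometric mean CPM of 10 epithelial (left) and 12 macrophage (right) markers of the same library, Aldara beside Vehicle; points are libraries numbered by replicate, bars the mean and SD of 4. Over epithelial markers Clca3a2 lies between −0.298 and 0.389 in Aldara and between −2.10 and −1.99 in Vehicle; over macrophage markers the groups overlap for Clca3a2 and Clca3a1 and not for Clca1.

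The counts of the marker lists that follow stand beside the 10.8% of all tested genes that passed in either direction. Among markers of epithelial subtypes, the luminal hormone-sensing list fell in part: 3 of 9 tested markers (Pgr, Areg and Wnt4) were lower. Wnt4 lost its call with the replicate block, with total counts and without Aldara replicate 2, 3 or 4 or Vehicle replicate 2, 3 or 4, and Pgr lost it with no filter on low counts. With the block, Prlr and Ly6a were called lower as well. The list had a summed level of 3330 to 3940 CPM in Aldara and 5070 to 6220 CPM in Vehicle. Among luminal progenitor and alveolar markers, 1 of 9 rose (Cd14) and 1 fell (Lalba), with a summed level of 1990 to 2480 CPM in Aldara and 1630 to 2130 CPM in Vehicle. Of the endothelial lists, in which Clca3a1 is also known, 0 of 7 lymphatic markers passed, with a summed level of 102 to 221 CPM in Aldara and 145 to 185 CPM in Vehicle. Of 9 blood endothelial markers 0 passed, with a summed level of 481 to 872 CPM in Aldara and 551 to 827 CPM in Vehicle. Also, 0 of 9 basal and 0 of 2 T cell markers passed. Of 6 mast cell markers only Kit was tested, and it did not pass. Kit is also in the luminal progenitor list, so its level cannot be tied to mast cells. Of these lists with 0 calls, 2 lymphatic markers and 1 basal marker had an unadjusted p under 0.05, and DESeq2 called Reln and Trp63 lower. Of 8 fibroblast markers 6 fell, with a summed level of 69.2 to 145 CPM in Aldara and 213 to 583 CPM in Vehicle. That count was 2 without Aldara replicate 2, 3 without Aldara replicate 3 or 4, without Vehicle replicate 2 or with no filter, and 4 without Aldara replicate 1 or Vehicle replicate 1. Of adipocyte markers 3 of 8 rose (Adipoq, Cidec and Cfd), and without 1 library Adipoq kept its call only when Aldara replicate 2 was the one left out. Of keratinocyte markers 1 of 4 fell (Krt15), a call lost without Aldara replicate 2, 3 or 4 or Vehicle replicate 1. The B cell marker Cd79b rose. No neutrophil marker passed the filter and Ly6g was at 0, but the list's summed level was higher in Aldara. It was 0.916 to 1.98 CPM in Aldara and 0.0938 to 0.193 CPM in Vehicle. DESeq2 called S100a8 higher, and the fit with no filter called S100a8 and S100a9 higher. S100a8 was also called higher without any 1 library other than Aldara replicate 3. The part of any of these in the Clca values was not tested.

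The proteins that CLCA family members are known to bind gave a mixed picture. Of 5 binding partner genes, 2 rose and 0 fell (40%, beside 10.8% of all tested genes), with a median log2 fold change of 0.01. Itgal and Itgb2, the LFA-1 chains that bind Clca3a1 protein in mice, rose. Itgal had 64.9, 111, 221 and 245 CPM in Aldara replicates 1 to 4, against 4.27, 4.07, 2.46 and 4.21 CPM in Vehicle replicates 1 to 4 (log2 fold change 5.43, SE 0.47, adjusted p = 0.000853). Itgb2 had 320 ± 156 CPM in Aldara and 44.6 ± 5.36 CPM in Vehicle (log2 fold change 2.84, SE 0.36, adjusted p = 0.00313). Both are leukocyte genes, and among the Aldara libraries both were lowest in replicate 1, as was the geometric mean of the macrophage list.

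Ano1, the gene of the TMEM16A channel that human CLCA1 binds, had 620, 602, 494 and 513 CPM in Aldara replicates 1 to 4, against 682, 796, 645 and 825 CPM in Vehicle replicates 1 to 4. The groups did not overlap, and the log2 fold change of −0.40 (SE 0.12) did not pass (adjusted p = 0.0557). It passed with the replicate block (adjusted p = 0.0322), with DESeq2 (adjusted p = 0.00905) and without Aldara replicate 1 (0.0471) or Vehicle replicate 3 (0.0418). Ano1 also passed with no filter on low counts (0.0244) and with upper-quartile factors (0.0364). Itgb4, the β4 integrin chain that binds some CLCA proteins, had 167 ± 15.9 CPM in Aldara and 166 ± 36.0 CPM in Vehicle (adjusted p = 0.969). Its partner Itga6 had 361 ± 60.2 CPM in Aldara and 405 ± 87.2 CPM in Vehicle (adjusted p = 0.584).

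Of 43 chloride channels and partners, 32 were tested, 2 rose and 1 fell, with a median log2 fold change of −0.02. That is 9.38% of them, near the 10.8% of all tested genes, so nothing is read from this count. Slc12a2, the sodium, potassium and chloride cotransporter that loads secretory epithelia with chloride, had 3050, 2960, 2190 and 2580 CPM in Aldara replicates 1 to 4, against 5970, 6070, 3840 and 4910 CPM in Vehicle replicates 1 to 4. It fell, with no overlap (log2 fold change −0.95, SE 0.17, adjusted p = 0.00695). Clcn5, an endosomal chloride and proton exchanger, rose to 39.2 ± 8.93 CPM in Aldara, against 23.6 ± 1.24 CPM in Vehicle (log2 fold change 0.73, SE 0.15, adjusted p = 0.0113). Clcn7, its lysosomal relative, had 62.9 ± 6.09 CPM in Aldara and 48.5 ± 3.81 CPM in Vehicle (log2 fold change 0.37, SE 0.09, adjusted p = 0.0289). The call of Clcn7 was lost without Aldara replicate 2, 3 or 4 or Vehicle replicate 2, 3 or 4, with an adjusted p of up to 0.0953. With the block, 3 of the 32 rose and 3 fell, and without Aldara replicate 1, 4 rose and 2 fell.

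Genes of interleukin-13 signalling and mucus did not move as one, with 1 of 16 tested higher and 2 lower. That is 18.8%, beside 10.8% of all tested genes, and the median log2 fold change was 0.01. Muc1, a membrane mucin of glandular epithelium, had 110, 101, 93.8 and 62.5 CPM in Aldara replicates 1 to 4, against 57.1, 66.9, 57.6 and 43.8 CPM in Vehicle replicates 1 to 4. Its groups overlapped in 1 library of each (log2 fold change 0.70, SE 0.18, adjusted p = 0.0319), and the call was lost without Aldara replicate 1, 2 or 3 or Vehicle replicate 1, 3 or 4 (adjusted p up to 0.0851). Alox15, a lipoxygenase that interleukin-13 induces in macrophages and epithelium, had 2.15 ± 0.655 CPM in Aldara and 11.9 ± 7.79 CPM in Vehicle (log2 fold change −2.45, SE 0.48, adjusted p = 0.0138, 0.0543 without Aldara replicate 4 and 0.0656 with no filter). Postn, a matrix protein, had 66.9 ± 14.8 CPM in Aldara and 101 ± 6.74 CPM in Vehicle (log2 fold change −0.59, SE 0.15, adjusted p = 0.0285), and its call was lost without any 1 of the Vehicle libraries (adjusted p up to 0.0746). Retnla, a marker of macrophages exposed to type 2 cytokines, had 130 ± 47.2 CPM in Aldara and 339 ± 179 CPM in Vehicle and did not pass (adjusted p = 0.0545). It passed with the block (adjusted p = 0.00228), with DESeq2 (0.0245) and without Vehicle replicate 1 (0.0346). Retnla also passed with no robust moderation (0.0367) and with upper-quartile factors (0.0494). Of the list, 3 rose and 4 fell with the block, and only Alox15 was called without Vehicle replicate 3 or 4. Tff1, Tff2, Tff3 and Itln1, secreted proteins of mucous cells, were at 0 in all 8 libraries.

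Clca3a2 is known to be raised in the involuting mammary gland in mice, so genes of involution and STAT3 signalling were set beside it. Of 23 tested, 4 rose and 1 fell (21.7%, beside 10.8% of all tested genes), with a median log2 fold change of 0.12. Saa3, an acute-phase protein, had 46.3, 29.6, 104 and 32.0 CPM in Aldara replicates 1 to 4, against 0.141, 0.685, 0.621 and 0.257 CPM in Vehicle replicates 1 to 4 (log2 fold change 6.92, SE 0.59, adjusted p = 0.000853). Lcn2, an iron-siderophore binder, had 1080, 938, 995 and 801 CPM in Aldara replicates 1 to 4, against 568, 570, 524 and 519 CPM in Vehicle replicates 1 to 4 (log2 fold change 0.81, SE 0.11, adjusted p = 0.00268). Both genes were higher in all Aldara libraries than in any Vehicle library.

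Cd14, the lipopolysaccharide co-receptor of macrophages and luminal progenitors, had 604 ± 108 CPM in Aldara and 375 ± 15.1 CPM in Vehicle (log2 fold change 0.69, SE 0.13, adjusted p = 0.00738). The remaining call upward was Osmr, the oncostatin M receptor, named after its values were seen. Its groups overlapped, and its call was lost without Aldara replicate 1, 2 or 4 or Vehicle replicate 1, 2 or 3. Socs3, the feedback inhibitor of STAT3, fell to 516 ± 104 CPM in Aldara, against 842 ± 124 CPM in Vehicle (log2 fold change −0.71, SE 0.16, adjusted p = 0.0169, and 0.0518 without Vehicle replicate 2). With the block, 7 rose and 2 fell, and without Vehicle replicate 2, 3 rose and 0 fell.

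Of 22 targets of p53, the factor known to induce human CLCA2, 0 rose and 1 fell. That is 4.55%, beside 10.8% of all tested genes, and the median log2 fold change was −0.21. Zmat3, an RNA-binding p53 target, had 32.6 ± 2.14 CPM in Aldara and 54.0 ± 17.2 CPM in Vehicle (log2 fold change −0.72, SE 0.19, adjusted p = 0.0382). The call was lost without Aldara replicate 2, 3 or 4 or Vehicle replicate 2 or 4 (adjusted p up to 0.105), and with no filter (0.0655). Perp, a desmosomal p53 target, had 81.8 ± 8.21 CPM in Aldara and 111 ± 20.3 CPM in Vehicle, with an adjusted p of 0.0507. That became 0.0132 with the block, 0.0148 with no filter and 0.0196 with DESeq2. With upper-quartile factors it was 0.0259, with total counts 0.0434 and without Aldara replicate 1 0.0364. Bbc3 and Ei24, which act in cell death, did not pass either (adjusted p = 0.111 and 0.094), though Ei24 passed with upper-quartile factors (0.0413). At an unadjusted p under 0.05, 7 of the list passed. With the block, 1 rose and 4 fell, DESeq2 called 1 higher and 2 lower, and without Aldara replicate 1, 1 rose and 2 fell.

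**Figure D5:**
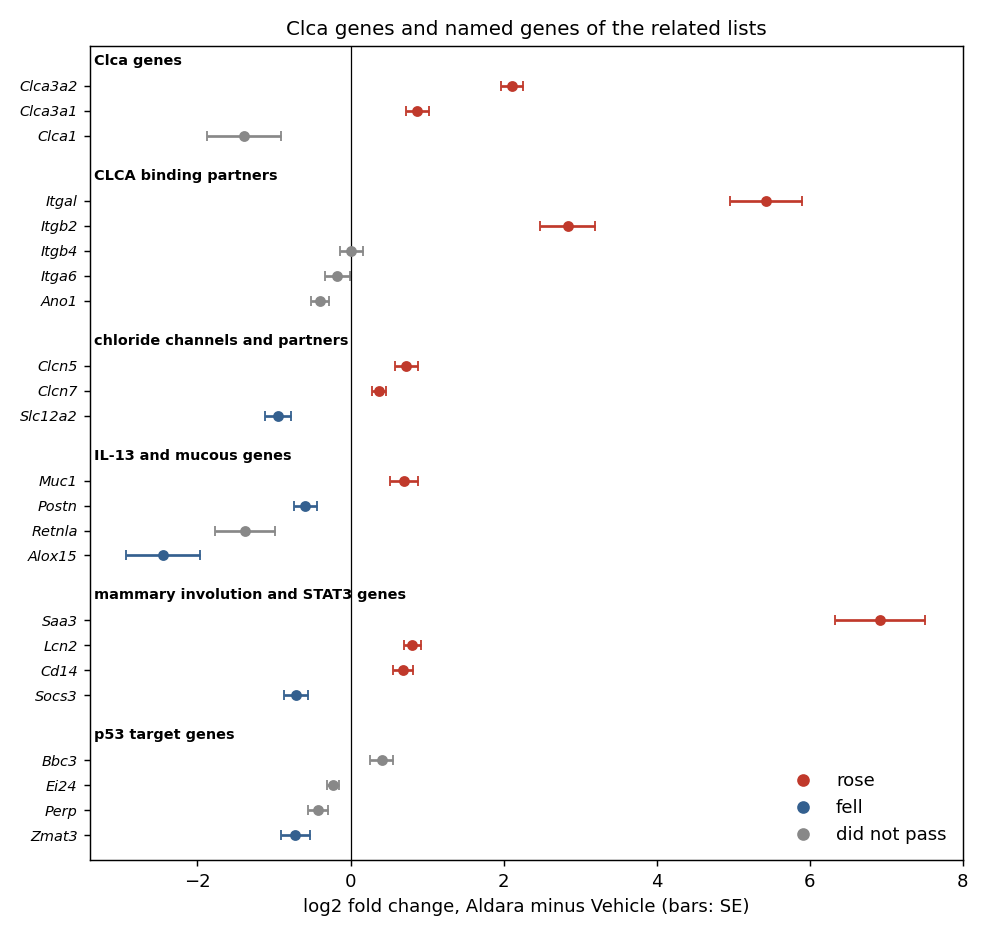
Log2 fold change, Aldara minus Vehicle (horizontal axis, bars show the SE), of the tested Clca genes and of the named genes of each list (rows), coloured by whether the gene rose, fell or did not pass at an adjusted p of 0.05. Clca3a2, for which the family was chosen from this comparison, lies at 2.11. Saa3 at 6.92 and Itgal at 5.43 lie farthest right.

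The genes whose pattern over the 8 libraries was most like each tested member were found by the root mean square difference of log2 CPM, after centring each gene on its own mean, among 13009 genes with a mean of at least 1 CPM. For Clca3a2 these were Chac1 (0.185), Rpl30-ps10 (0.31), Cfd (0.395), Apol9a (0.398) and Nxpe5 (0.401). Chac1, which encodes a glutathione-degrading enzyme, had 4.23, 3.39, 3.21 and 2.77 CPM in Aldara replicates 1 to 4, against 0.75, 1.01, 0.537 and 0.867 CPM in Vehicle replicates 1 to 4. Like Clca3a2 it was highest in Aldara replicate 1 and lowest among the Aldara libraries in replicate 4. Clca3a1 was 107th in likeness to Clca3a2 (0.639).

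For Clca3a1 the nearest were Lcn2 (0.132), Srcin1 (0.148), Bok (0.149), Ogfrl1 (0.153) and Muc1 (0.153), while Clca3a2 ranked 10515 at the same distance of 0.639. The distance grows with a difference in log2 fold change, here 0.87 against 2.11, and not only with a difference in pattern. Clca3a1 and Clca3a2 were both highest in Aldara replicate 1 and, among the Aldara libraries, lowest in replicate 4. Bok, of the BCL2 family, had 8.68 ± 1.05 CPM in Aldara and 4.92 ± 0.567 CPM in Vehicle, and Ogfrl1 66.1 ± 8.42 CPM in Aldara and 38.8 ± 1.21 CPM in Vehicle. Muc1 and Lcn2 also stand in the lists above, where they were named by their p in this same comparison. Their closeness to Clca3a1 comes from the same counts and adds no support. For Clca1 the nearest were Fgb (0.408), Anln (0.462), Diaph3 (0.466), Atp2a1 (0.477) and Nusap1 (0.481). Fgb, a fibrinogen chain, had 497, 351, 397 and 582 CPM in Aldara replicates 1 to 4, against 421, 590, 716 and 1540 CPM in Vehicle replicates 1 to 4, and like Clca1 was highest in Vehicle replicate 4. The distances for Clca1 were larger than for the pair, and both other members were far from it (1.3 for Clca3a1 and 1.79 for Clca3a2).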

How the data were processed

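The authors deposited read counts per gene as whole numbers without normalisation. The build was mm10, the same assembly as GRCm38, and the tools were HISAT2 (2.0.5), DESeq2 with no version given, and featureCounts (1.5.0-p3), all per the submitters' processing notes. Neither read length nor counting options were given there or in the labels. Per the labels' protocols, RNA was amplified with a SMARTer ultra-low-input kit after poly-A enrichment. Of 56748 identifiers, 52073 (91.8%) had a symbol in GENCODE M21, and some are more recent than that annotation.

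The test was run on the unchanged counts in edgeR 4.0.16 (R 4.3.3): filterByExpr (minimum count 10), TMM factors (0.957 to 1.035), the robust quasi-likelihood test on group alone, and Benjamini-Hochberg adjustment over 16780 genes with a threshold of 0.05. The SE is derived from the F statistic. DESeq2 1.42.0 was an alternative. Centred log2 CPM used a prior count of 2 (limma 3.58.1 came with edgeR). Intervals at 95% and the floor of 3 counts reflect counting error alone, because PCR copies were not marked by molecular identifiers. Coding regions and transcript windows came from GENCODE M21. Start-site sequences are not reported here.

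On simulated counts for this comparison (16780 genes), the test recovered 69% of simulated log2 changes of 1 and 100% of changes of 2, with 0 sign errors, and 6.63% of calls were unchanged genes. No library is a duplicate: within groups, chi-square per degree of freedom was at least 20.2. The groups share replicate numbers, and deviations from the group means of same-numbered libraries correlated by 0.228, 0.108, 0.167 and 0.218 across genes. Between libraries of different number the correlations were −0.216 to 0.0819. All same-number values exceed 0.1, so the numbers were taken to pair the libraries. This pairing comes from the data and not from the labels. The main fit does not use it and is on group alone. With the replicate block as an alternative, 1546 genes rose and 1030 fell, against 1171 and 647 in the main fit.

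The members and gene lists were chosen with earlier results of these data known. Genes were named by a rule: all Clca genes, the nearest coding gene on each side, up to 4 genes of smallest p per list plus Ano1, Itgb4, Itgal and Itgb2, Epcam, Krt8, Adgre1 and Ptprc, and the 5 genes most alike to each tested member, predicted models left out. Gm43240, Gm34866, Gm17743, Osmr and the single markers named in list counts fall outside it and were chosen after their values were seen. Alternatives were other scaling factors, DESeq2, no filter, no robust moderation, the replicate block, summed rows and leaving out each library.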

Additional observations from a re-analysis of the deposited data

Results flagged for a closer look

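Of 84 groups of 4 libraries examined (named genes by group), 4 held a library far from the others by Dixon's criterion, and chance flags about 1 in 20. Clca2 had 0.565 CPM in Vehicle replicate 3, against 0.161 to 0.188 CPM in the other Vehicle libraries. Itgal had 2.46 CPM in Vehicle replicate 3, below the 4.07 to 4.27 CPM of the others. Postn had 111 CPM in Vehicle replicate 1, against 96.8 to 98.4 CPM in the others, and Bok had 5.77 CPM there, against 4.55 to 4.72 CPM. All 4 are Vehicle libraries.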

How the results depend on the processing

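Leaving out 1 library gave log2 fold changes of 2.01 to 2.2 for Clca3a2 and 0.78 to 0.97 for Clca3a1. These describe the same counts from which the family was chosen and add no support. Clca1 ranged from −1.62 to −0.69 without 1 library, lowest in size without Vehicle replicate 4, and passed only with the replicate block, at −1.17. Without the filter on low counts Clca3b gave 2.67 (SE 0.77) and passed, and Clca2 gave −1.37 (SE 0.75) and did not. In that fit 945 genes rose and 693 fell. Clca3b had 41 counts in Aldara and 7 in Vehicle, and its family was chosen from this comparison, so nothing is read from that call. Genes that fell numbered 990 with upper-quartile factors, 1154 with DESeq2 and 1030 with the block, and 323 to 664 without 1 library, while genes that rose numbered 629 to 1405 without 1 library. The count of rises was lowest without Aldara replicate 4 (629) or 3 (658) or Vehicle replicate 2 (699) or 1 (703), and that of falls without Aldara replicate 3 (323) or 2 (353) or Vehicle replicate 2 (412) or 1 (415). Calls among the chloride channels and partners numbered 6 with DESeq2, 5 without the filter, 6 with the block and 2 to 6 without 1 library. Calls among the interleukin-13 and mucous genes numbered 9 with DESeq2, 7 with the block and 1 to 3 without 1 library. Among the involution and STAT3 genes they numbered 9 with the block and 3 to 6 without 1 library. Among the p53 targets they numbered 3 with upper-quartile factors, 2 with total counts, 3 with DESeq2, 5 with the block and 0 to 3 without 1 library. Among the genes named by the rule, the block changed the calls of Clca1, Ano1, Retnla, Perp and Nusap1 and of no other. It also added or dropped calls of other list members, which the list counts include. Genes with no call and a fold change near 0 changed sign: Itgb4 (−0.04 with upper-quartile factors, 0 with DESeq2 or no filter, −0.12 to 0.14 without 1 library), Krt8 (−0.04, 0 and 0, and −0.1 to 0.15) and Odf2l (−0.03 to 0.14 without 1 library). The cause of these shifts was not tested. The settings for single named genes other than Clca genes were added after the data were seen. Depth limits Clca2, Clca3b and the Clca4 genes, which had at most 20 counts in any library.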
